A study of Homo sapiens with 8 samples.

Results

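The 10 genes described here act in vitamin A metabolism and signaling, and were followed in LM2 cells among 58688 genes listed in the deposited tables. LM2 is a line derived from the triple negative breast cancer line MDA-MB-231 and selected for metastasis to the lung. They were RDH10, DHRS3, RDH11, RDH12, ALDH1A3, CYP26B1, CRABP2, RARA, RARB and RARG, all found by symbol. They were chosen by pathway and on the Ponatinib response: RDH12 and DHRS3 were picked from the largest rises with the drug, so their change with Ponatinib is given as a description, with no p-value. RNA-seq was performed on 8 samples of cells grown in DMEM with 10% FBS. In the drug experiment, cells received DMSO (n = 2) or Ponatinib, a kinase inhibitor of ABL and several other kinases, at 1 µM for 6 h (n = 2). In the shRNA experiment, stable lines were made by lentiviral infection with scrambled shRNA (shCtrl), ABL1 shRNA, ABL2 shRNA or both shRNAs, with 1 sample each and no drug. Nothing in the sources says that the repeats came from separate cultures. The p-values thus set the drug difference against a spread that rests on these samples and may be technical.

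Vitamin A enters cells as retinol. Retinol dehydrogenases oxidize it to retinal, retinal reductases turn retinal back into retinol, and retinal dehydrogenases make retinoic acid, the active hormone, in a step that is not reversed. CYP26 enzymes degrade retinoic acid. CRABP2 carries retinoic acid to the nucleus, where it binds the receptors RARA, RARB and RARG, which pair with RXR receptors on DNA and switch between corepressors and coactivators. In breast epithelium this pathway is known for favoring differentiation, and loss of RARB is known in breast tumors.

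The samples held 7568934 to 13010896 counts on genes, so that 3 counts in a sample equal 0.231 to 0.396 CPM, the usual unit of counts relative to library size. Normalized CPM is further divided by a TMM factor of edgeR, which evens out differences in RNA composition. ABL1 had 1871 and 1608 counts with DMSO, 1921 and 1488 with Ponatinib, 2159 with shCtrl, 944 after ABL1 shRNA, 2550 after ABL2 shRNA and 1329 after both shRNAs. ABL2 had 3788 and 3022 counts with DMSO, 1553 and 1300 with Ponatinib, 2686 with shCtrl, 2757 after ABL1 shRNA, 1177 after ABL2 shRNA and 1795 after both. The table labelled shCtrl and the table labelled ABL1 shRNA each carry a header cell that names the other condition, and the ABL1 counts go with the labels, which were used. The defining markers of the line were present in every sample, with 23217 to 33084 counts of VIM and 4205 to 8526 of CD44. ESR1 had 3 to 11 counts, PGR had 0 and EPCAM had 61 to 125. Markers of other cell types were low, with 0 to 3 counts of PTPRC and 0 to 2 of ALB, but PECAM1 had 18 to 42 counts in the drug experiment and 233 to 499 in the shRNA experiment. CDH1 had 0 to 4 counts in every sample except those with ABL1 shRNA, at 23, and with both shRNAs, at 20. Their part in the results was not tested. In bulk RNA, more cells with a transcript and more transcript per cell cannot be told apart. The drug and shRNA experiments were normalized separately, and 68 genes with at least 100 counts in every drug-experiment sample had 0 in every shRNA sample; no retinoid gene was among them.

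The start regions of 3 of these genes are shown because DHRS3 was chosen for its rise with the drug, RARG changed with it, and RARB holds a repeat of receptor half-sites. Sequences are the 250 bases before annotated starts in RefSeq (GRCh38.p14), each read 5′ to 3′ on the strand of the gene, and 8 of the 10 genes have such windows. RDH12 and RDH10 have none in the table used. Capitals mark the AP-1 motif TGANTCA and the half-sites AGGTCA or AGTTCA or GGGTCA or GGTTCA, searched on both strands. A direct repeat is a pair of half-sites in the same direction with 1, 2 or 5 bases between them, so a window with a repeat also holds half-sites. DHRS3 has 3 windows and RARB 4, RARG has 1, and those with a motif beyond a single half-site are shown, with the outermost of DHRS3 and that of RARG for comparison. The DHRS3 windows shown lie on the minus strand at chr1:12596614-12596863 (inner start) and chr1:12618211-12618460 (outermost start), the RARG window on the minus strand at chr12:53232210-53232459, and the third RARB window on the plus strand at chr3:25428013-25428262.
DHRS3 inner start: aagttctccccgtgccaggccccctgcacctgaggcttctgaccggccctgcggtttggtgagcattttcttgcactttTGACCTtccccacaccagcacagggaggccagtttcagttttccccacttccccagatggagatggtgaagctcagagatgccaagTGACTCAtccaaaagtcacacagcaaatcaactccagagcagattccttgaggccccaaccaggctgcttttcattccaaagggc
DHRS3 outermost start: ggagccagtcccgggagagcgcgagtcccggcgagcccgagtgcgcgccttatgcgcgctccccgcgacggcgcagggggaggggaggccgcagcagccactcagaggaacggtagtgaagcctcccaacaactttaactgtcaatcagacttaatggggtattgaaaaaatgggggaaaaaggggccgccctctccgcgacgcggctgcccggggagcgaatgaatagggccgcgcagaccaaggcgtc
RARG: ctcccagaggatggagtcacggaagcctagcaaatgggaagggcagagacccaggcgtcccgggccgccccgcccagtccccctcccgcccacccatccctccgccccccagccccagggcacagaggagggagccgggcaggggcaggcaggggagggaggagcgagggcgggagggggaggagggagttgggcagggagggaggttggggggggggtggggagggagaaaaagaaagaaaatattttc
RARB: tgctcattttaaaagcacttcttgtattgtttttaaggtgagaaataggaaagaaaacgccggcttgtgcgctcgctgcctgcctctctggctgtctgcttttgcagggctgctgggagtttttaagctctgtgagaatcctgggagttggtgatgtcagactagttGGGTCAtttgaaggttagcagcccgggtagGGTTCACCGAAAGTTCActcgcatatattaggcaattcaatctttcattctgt

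The inner DHRS3 window held 1 AP-1 motif, at bases -85 to -79 from the start, and a half-site on the other strand at -171 to -166. The outermost DHRS3 window and the RARG window held neither motif, and the middle DHRS3 window, not shown, held 1 half-site, at -172 to -167. The RARB window shown was picked from its 4 for its repeat. It held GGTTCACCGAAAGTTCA, a direct repeat with 5 bases between the half-sites, at -53 to -37, and a further half-site at -83 to -78. Of the other RARB windows, 2 held 1 half-site each and 1 held none. Of 35116 windows of this length, 6.57% held the AP-1 motif, 33.8% a half-site, 0.0968% a direct repeat with 1 base between, 0.0313% with 2 and 0.074% with 5. These matches describe the letters in the windows and were not tested for binding.

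DHRS3 and RDH12 both encode reductases that turn retinal back into retinol. DHRS3 is also known as a gene that retinoic acid itself turns on, and RDH12 is known from photoreceptors, where its loss causes retinal dystrophy. DHRS3 (chr1:12567910-12618210, minus strand) had 2 and 1 counts in the DMSO samples and 26 and 24 in the Ponatinib samples. Normalized CPM was 0.177 and 0.101 with DMSO and 2.47 and 3.12 with Ponatinib. The pooled level with Ponatinib was 19.4 times that with DMSO (95% counting interval 6.26 to 97.2, from 50 against 3 counts). RDH12 (chr14:67701886-67734451, plus strand) had 1 and 0 counts with DMSO and 15 and 21 with Ponatinib. Its normalized CPM was 0.089 and 0 with DMSO and 1.43 and 2.73 with Ponatinib, a pooled ratio of 41.9 (95% counting interval 7.05 to 1699, from 36 against 1 counts). Both Ponatinib samples lay above both DMSO samples for both genes, as the choice of these genes implies. The DMSO levels of both were at or below 3 counts per sample, and the intervals cover counting error only.

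The neighboring genes were examined beside both. RDH12 lies beside RDH11 and overlaps ZFYVE26 on the opposite strand, which covers 536 of its 2355 exon bases (22.8%). ZFYVE26 had 663 and 597 counts with DMSO and 812 and 647 with Ponatinib (log2 fold change 0.43, SE 0.074, edgeR adjusted p = 0.000409). The strand setting of the counting is not given in the sources used here, so reads from the shared bases cannot be assigned to either gene. In the shCtrl sample, ZFYVE26 had 1112 counts and RDH12 had 0. The log2 fold change of VPS13D, next to DHRS3, was 0.12 (edgeR adjusted p = 0.321), and AADACL4 on its other side had 0 counts in all 8 samples.

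**Figure D1:**
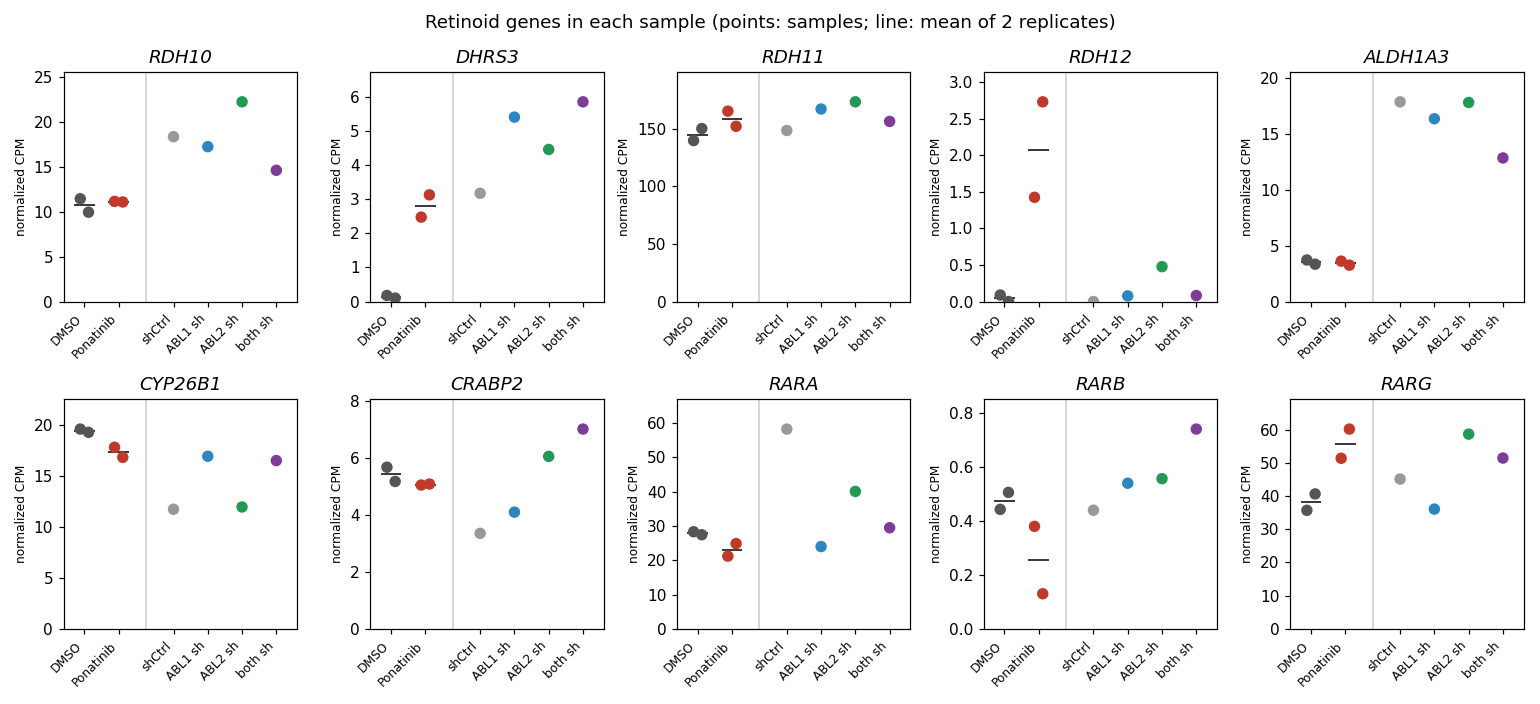
Normalized CPM (vertical axes, from 0, a scale for each gene) of the 10 genes in each of the 8 samples; points are samples and lines the mean of 2 replicates, with the drug experiment left of the gray line and the shRNA experiment, normalized separately, right of it. DHRS3 and RDH12 are near 0 with DMSO and at 2.47 to 3.12 and 1.43 to 2.73 with Ponatinib, and RARA is highest in shCtrl, at 58.3.

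Of the other 8 genes, 7 had enough counts for the test of Ponatinib against DMSO, and 1, the receptor RARG, changed (adjusted p under 0.05). Over all 16031 genes tested, 30.7% changed. At an unadjusted p under 0.05, 2 of the 7 passed, against 40.6% of all genes, and 0 of the 7 were DEGs (fold change over 2 and unadjusted p under 0.05), against 5.48% of all genes. DESeq2's Wald test also gave 1 changed gene and 0 DEGs among them. The 2 Ponatinib samples did not overlap the 2 DMSO samples for 5 of the 7 genes, against 64.9% of all genes tested. The median log2 fold change of the 7 was -0.03, beside -0.005 for all genes tested.

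RARG (chr12:53210567-53232980, minus strand), the receptor best known from skin and other epithelia, had normalized CPM of 35.7 and 40.6 with DMSO and 51.3 and 60.1 with Ponatinib. Both Ponatinib samples were above both DMSO samples. The mean went from 38.1 ± 3.49 to 55.7 ± 6.21 (SD, n = 2 each), a rise of 1.455-fold (log2 fold change 0.54, SE 0.097, edgeR adjusted p = 0.000593). RARA (chr17:40309180-40357643, plus strand), the most widely expressed receptor of the family, had 28.3 and 27.4 normalized CPM with DMSO and 21.2 and 24.9 with Ponatinib. The 2 groups did not overlap, and the difference did not pass (log2 fold change -0.29, SE 0.11, edgeR adjusted p = 0.0589). RARB (chr3:24687887-25597932, plus strand), which is itself a target gene of retinoic acid receptors, had 5 and 5 counts with DMSO and 4 and 1 with Ponatinib. These counts were too few for the test, and the pooled ratio of 0.582 had a counting interval from 0.156 to 1.87, so neither a fall nor a rise was detectable at this depth.

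RDH11 (chr14:67676800-67695793, minus strand), a reductase of retinal with a broad tissue range, had 139.8 and 150.3 normalized CPM with DMSO and 165.4 and 152.3 with Ponatinib. Its log2 fold change was 0.13 (SE 0.068, edgeR adjusted p = 0.153). Leaving out Ponatinib replicate 2 raised the number of changed genes from 1 to 3, since RDH11 (log2 fold change 0.19, edgeR adjusted p = 0.0061) and RARA (-0.40, edgeR adjusted p = 0.00558) then passed beside RARG. Such a fit holds 1 Ponatinib sample, which is assumed to vary like the DMSO pair, and the DMSO pair differed less (chi-square per degree of freedom over genes 1.44, against 3.12 for the Ponatinib pair). Over all alternatives, the adjusted p of RDH11 ranged from 0.0061 to 0.677, that of RARA from 0.00558 to 0.377 and that of RARG from 1.04e-10 to 0.0141, with the fits that left out a sample resting on 1 pair for their spread. With all 4 samples, RARG had adjusted p from 2.95e-07 to 0.00292 over the alternatives.

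The enzymes that make and degrade retinoic acid and the carrier CRABP2 did not pass the test. RDH10 (chr8:73294602-73325281, plus strand), the main enzyme that oxidizes retinol to retinal in embryos, had 11.4 and 9.93 normalized CPM with DMSO and 11.1 and 11.1 with Ponatinib. ALDH1A3 (chr15:100877714-100916626, plus strand), which makes retinoic acid from retinal and is a known marker of breast cancer stem-like cells, had 3.72 and 3.34 with DMSO and 3.61 and 3.25 with Ponatinib. For both genes the groups overlapped. ALDH1A3-AS1, an antisense gene that covers 32.1% of ALDH1A3 exon bases, had 4 to 21 counts in the 8 samples. The log2 fold change of RDH10 was 0.05 (95% interval -0.27 to 0.37, edgeR adjusted p = 0.832), and that of ALDH1A3 was -0.03 (95% interval -0.56 to 0.49, edgeR adjusted p = 0.935). CYP26B1 (chr2:72129238-72147862, minus strand), which degrades retinoic acid, had 19.6 and 19.2 normalized CPM with DMSO and 17.8 and 16.8 with Ponatinib (log2 fold change -0.16, SE 0.12, edgeR adjusted p = 0.327). CRABP2 (chr1:156699606-156705816, minus strand), the carrier, had 5.67 and 5.17 with DMSO and 5.04 and 5.08 with Ponatinib (log2 fold change -0.10, SE 0.203, edgeR adjusted p = 0.746). For CYP26B1 and CRABP2, both Ponatinib samples lay below both DMSO samples, without passing the test. The 95% interval of CYP26B1 was -0.41 to 0.09 and that of CRABP2 -0.54 to 0.33.

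Beyond the 10 genes, a list of 55 other retinoid genes was counted. With Ponatinib, 26 of them could be tested, of which 12 rose, 3 fell and 11 did not pass, against 15.0% of all genes that rose and 15.7% that fell. The median log2 fold change of the 26 was 0.365. The list was chosen with earlier results of these data known, and its counts are a description. Of 10 tested enzymes, 5 rose and 0 fell. Among them were SDR16C5, a retinol dehydrogenase of epithelia, at 2.83 and 2.23 normalized CPM with DMSO and 4.85 and 4.17 with Ponatinib (log2 fold change 0.83, edgeR adjusted p = 0.0213), and LRAT, which stores retinol as esters, at 2.74 and 2.63 against 4.47 and 4.42 (0.72, edgeR adjusted p = 0.0342). RETSAT, which saturates retinol, went from 49.9 and 49.3 to 74.4 and 77.2 (0.61, edgeR adjusted p = 1.57e-05). RDH5, another retinol dehydrogenase, was a DEG by the unadjusted p, with a log2 fold change of 1.09, but had an edgeR adjusted p of 0.0898.

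Of 8 listed partner receptors and coregulators that could be tested, 5 rose and 3 did not pass. Of all genes tested, 15.0% rose and 15.7% fell, and the counts in these lists are a description. The coactivators NCOA2 and NCOA1, which nuclear receptors recruit when bound by ligand, rose, NCOA2 from 23.5 and 24.5 to 42.5 and 48.5 normalized CPM (log2 fold change 0.91, edgeR adjusted p = 5.28e-06) and NCOA1 from 19.6 and 21.9 to 29.2 and 34.2 (0.61, edgeR adjusted p = 0.000887). RXRA, a partner of the receptors, rose by 0.47 on the log2 scale (edgeR adjusted p = 0.000279). RXRB, another partner, did not pass (0.05, edgeR adjusted p = 0.7). The corepressor NCOR1 rose (0.36, edgeR adjusted p = 0.00308). Of 9 tested genes known to be induced by retinoic acid, 3 rose, 3 fell and 3 did not pass. The lists overlap, and LRAT, given above with the enzymes, is also among these 3 that rose. TGM2, a transglutaminase, went from 364.9 and 366.3 normalized CPM to 177.1 and 184.4 (log2 fold change -1.02, edgeR adjusted p = 8.65e-09). HIC1, a transcriptional repressor, fell by 0.94 on the log2 scale (edgeR adjusted p = 0.0298), and GPRC5A, a receptor first named for its induction by retinoic acid, fell by 0.56 (edgeR adjusted p = 9.13e-06). TNFAIP2 and BHLHE40 rose, by 0.81 and 0.67 (edgeR adjusted p = 2.6e-07 and 5.17e-06). Only 1 of 9 other carriers could be tested, FABP5, and it did not pass (log2 fold change -0.10, edgeR adjusted p = 0.532). CYP26A1 and STRA6, both known to respond to retinoic acid, had 0 to 1 and 0 to 2 counts in the DMSO and Ponatinib samples.

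**Figure D2:**
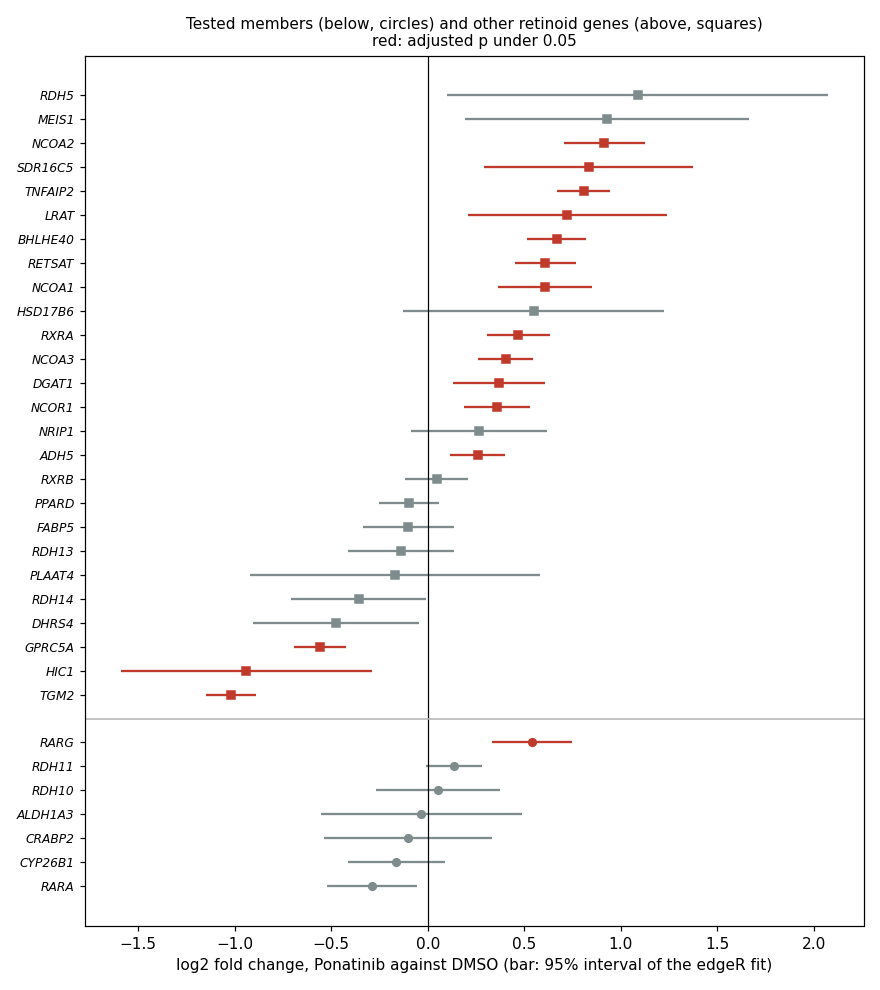
Log2 fold change of Ponatinib against DMSO (horizontal axis) with its 95% interval for the 7 tested genes outside RDH12 and DHRS3 (circles, below the line) and 26 other retinoid genes (squares), 2 samples per group; red marks adjusted p under 0.05. RARG is the 1 red circle, at 0.54, and 15 of the squares are red, from -1.02 for TGM2 to 0.91 for NCOA2.

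The shRNA samples address whether partial knockdown of ABL1 and ABL2 moved the same genes. ABL1 was at 0.383 of shCtrl with ABL1 shRNA and at 0.576 with both shRNAs. ABL2 was at 0.396 with ABL2 shRNA and at 0.625 with both, so each fell less with both shRNAs than with its own alone. With 1 sample each, and the same shCtrl sample under all 3 ratios, no test was possible. Each ratio is of normalized CPM, with a 95% counting interval, and a gene was called when it was over 2-fold from shCtrl with at least 10 counts in the higher sample. Of the 10 genes, 8 had at least 10 counts. With ABL1 shRNA 1 was called, with ABL2 shRNA 0 and with both shRNAs 1, while 8.90% of 15832 genes (4.86% higher, 4.04% lower), 7.71% of 15769 genes (4.64% higher, 3.08% lower) and 7.74% of 15733 genes (4.47% higher, 3.27% lower) were called overall. Between the 2 DMSO replicates 2.63% of genes were over 2-fold apart, and between the 2 Ponatinib replicates 3.06%.

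RARA was the gene called with ABL1 shRNA. It had 662 counts with shCtrl, 311 after ABL1 shRNA, 504 after ABL2 shRNA and 358 after both, or 58.3, 24.0, 40.1 and 29.5 normalized CPM. The ratio to shCtrl was 0.412 (0.359 to 0.472) with ABL1 shRNA, 0.688 (0.611 to 0.773) with ABL2 shRNA and 0.506 (0.444 to 0.576) with both. All 3 knockdown samples lay below shCtrl. RARA-AS1, an antisense gene that covers 11.7% of RARA exon bases, had 14 counts with shCtrl and 5, 5 and 8 in the knockdowns. RARG had 45.1 normalized CPM with shCtrl, 36.0 after ABL1 shRNA, 58.6 after ABL2 shRNA and 51.4 after both, so 1 knockdown sample lay below shCtrl and the other two above it. The ratios were 0.799 (0.704 to 0.908), 1.3 (1.16 to 1.46) and 1.14 (1.01 to 1.28). RARB had 5 counts with shCtrl and 7, 7 and 9 in the knockdowns.

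CRABP2 was the gene called with both shRNAs. It had 38 counts with shCtrl, 53 after ABL1 shRNA, 76 after ABL2 shRNA and 85 after both. Its ratio to shCtrl was 1.22 (0.791 to 1.91), 1.81 (1.21 to 2.74) and 2.09 (1.41 to 3.15). DHRS3 had 36 counts with shCtrl, 70 after ABL1 shRNA, 56 after ABL2 shRNA and 71 after both, with ratios of 1.7 (1.12 to 2.62), 1.41 (0.908 to 2.2) and 1.84 (1.22 to 2.84). Its 3 knockdown samples were all higher than shCtrl, and none was called. RDH12 had 0 counts with shCtrl, 1 after ABL1 shRNA, 6 after ABL2 shRNA and 1 after both, all too few to call. For shCtrl, 0 counts allow up to 0.258 CPM.

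CYP26B1 was higher with ABL1 shRNA and with both, at ratios of 1.44 (1.16 to 1.8) and 1.41 (1.12 to 1.76), and at 1.02 (0.801 to 1.3) with ABL2 shRNA. RDH11 had ratios of 1.13 (1.06 to 1.2), 1.17 (1.09 to 1.25) and 1.05 (0.986 to 1.12). For ALDH1A3 they were 0.915 (0.751 to 1.11), 0.997 (0.821 to 1.21) and 0.719 (0.58 to 0.89). RDH10 had ratios of 0.94 (0.774 to 1.14), 1.21 (1.01 to 1.46) and 0.796 (0.648 to 0.978). Of the 8 genes, 4 (DHRS3, RDH11, CYP26B1 and CRABP2) had shCtrl below all 3 knockdowns by any amount, against 28.8% of 15311 genes, and 2 (RARA and ALDH1A3) had it above all 3, against 31.4%. With total counts in place of TMM, ALDH1A3 with ABL2 shRNA lay above shCtrl instead, at a log2 ratio of 0.04.

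**Figure D3:**
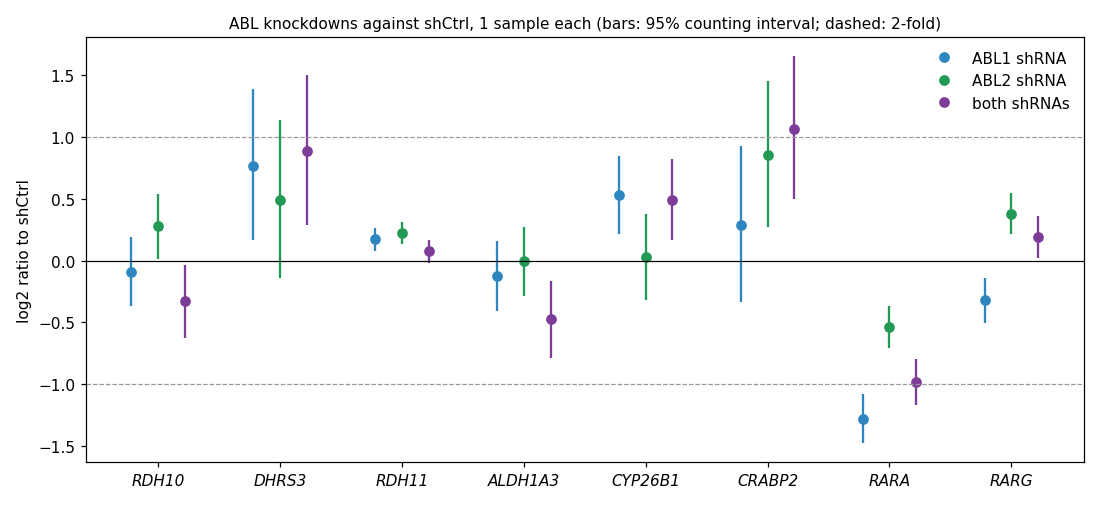
Log2 ratio of normalized CPM to the shCtrl sample (vertical axis) for the 8 genes with at least 10 counts, with 1 sample per knockdown; bars are 95% counting intervals and dashed lines mark 2-fold. RARA lies below 0 in all 3 knockdowns and past the 2-fold line with ABL1 shRNA, CRABP2 lies past it with both shRNAs, and DHRS3 lies between 0 and the line in all 3.

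Of all genes with enough counts, 8.90%, 7.71% and 7.74% were called after knockdown of ABL1, ABL2 and both genes. Among the 55 other retinoid genes, the numbers called were 2 of 30, 0 of 27 and 0 of 29, in the same order. The 2 were STRA6, the membrane receptor for retinol uptake, with 27 counts with shCtrl and 63 with ABL1 shRNA (ratio 2.04, 1.28 to 3.34), and HSD17B6, a dehydrogenase of steroids and retinol, with 7 and 22 counts (2.75, 1.14 to 7.63). STRA6 had 27 counts with ABL2 shRNA and 53 with both, and HSD17B6 had 4 and 14. STRA6 and HSD17B6 were named for their call with ABL1 shRNA, so a high level in that sample follows from the choice. In the shRNA experiment, HSD17B6 had at least 10 counts only with ABL1 shRNA and with both. STRA6 and HSD17B6 were highest in the 2 samples with ABL1 shRNA, as were DHRS3 and CYP26B1. RARA, RDH10 and ALDH1A3 were lowest in them, and RDH11, CRABP2 and RARG were neither. The share of all genes with such an order was not counted, so it is a description of these genes only. CDH1 was also highest in the 2 samples with ABL1 shRNA (4 counts with shCtrl, 23 after ABL1 shRNA, 2 after ABL2 shRNA and 20 after both). EPCAM was instead below shCtrl in each knockdown, with 105 counts with shCtrl and 96, 73 and 61 in the same order (ratios 0.801, 0.628 and 0.544). The part of cells that express CDH1 or EPCAM in these differences was not tested.

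Levels were compared between genes per kilobase of exon. In the DMSO samples the order was RDH11 (25.4 and 27.3 normalized CPM per kb), RARG (6.96 and 7.92), RARA (5.97 and 5.79), CRABP2 (5.24 and 4.77), CYP26B1 (4.04 and 3.98), RDH10 (2.14 and 1.86) and ALDH1A3 (0.697 and 0.626). None of these neighbors overlapped. DHRS3 (0.05 and 0.029), RARB (0.047 and 0.054) and RDH12 (0.038 and 0) stood at the bottom, and the ranges of DHRS3 and RARB and of DHRS3 and RDH12 overlapped. With Ponatinib, DHRS3 stood at 0.703 and 0.889 and RDH12 at 0.606 and 1.16 per kb. The range of RDH12 overlapped those of DHRS3 and of ALDH1A3, at 0.677 and 0.61, whereas DHRS3 lay above ALDH1A3 in both samples. In the shCtrl sample RARA ranked second after RDH11, at 12.3 per kb, above RARG at 8.79, and DHRS3 was at 0.902. The DHRS3 level in shCtrl thus stood beside those of the Ponatinib samples, and ALDH1A3, at 3.35, was above all 4 samples of the drug experiment. STRA6 had 27 to 63 counts in the shRNA experiment and 0 to 2 in the drug experiment. The 2 experiments were normalized separately and differ in viral infection and selection, so these differences cannot be told apart from the experiment itself.

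**Figure D4:**
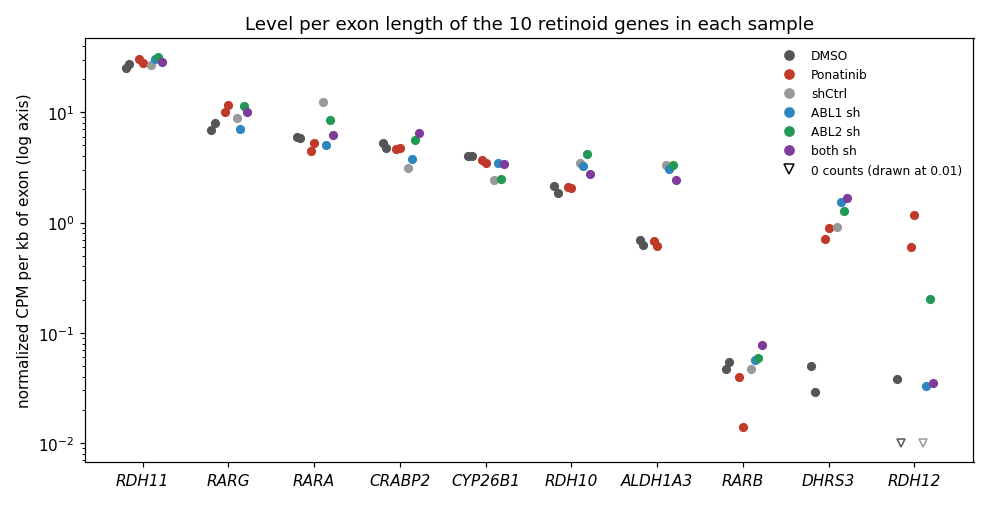
Normalized CPM per kilobase of exon (log axis) of the 10 genes in each of the 8 samples, ordered by the DMSO level; each point is a sample, triangles stand for 0 counts, and the 2 experiments were normalized separately. RDH11 lies near 25.4 to 31.6 in every sample, while DHRS3 spans 0.029 to 1.66 and RDH12 0 to 1.16.

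The genes whose profile lay nearest to RDH12 and DHRS3 were sought over 5 log2 differences, those of each Ponatinib sample from the DMSO mean and of each knockdown from shCtrl, among 14584 genes. The nearest to RDH12 was DHRS3 (Euclidean distance 1.58), followed by TNFRSF9 (1.61), NHSL1-AS1 (1.62), MKX (1.66) and SLC6A9 (1.79). The nearest to DHRS3 were CTH (0.764), PIK3C2B (0.857), SLC6A9 (0.942), NHSL1-AS1 (1.12) and DDIT4 (1.14). With a prior count of 2, the differences of DHRS3 were 2.98 and 3.29 for the Ponatinib samples and 0.74, 0.47 and 0.85 for the knockdowns. Those of RDH12 were 2.74 and 3.59, and 0.56, 1.97 and 0.59, from 0 to 6 counts in the shRNA samples. Because both genes were chosen for this rise, the distances are a description.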

How the data were processed

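RNA-seq tables of 8 LM2 samples were used. The authors aligned reads to hg38 with Bowtie/TopHat and deposited raw counts per gene from HTSeq 0.6.0 (FastQC and TopHat versions are not given in the sources used here), 1 table per sample. Libraries were made with the NEBNext Ultra kit and sequenced on an Illumina HiSeq. Summary rows were left out of library sizes; reads with no feature or an ambiguous one, listed in the shRNA tables only, were 15.66% to 16.02%. Ensembl IDs were matched to symbols in GENCODE v44, which also gave positions (54836 IDs had a symbol).

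Ponatinib and DMSO samples were compared with edgeR 4.0.16 (R 4.3.3; quasi-likelihood test, TMM, filterByExpr, Benjamini-Hochberg over all genes tested), which was tested on simulated data. Changed means an adjusted p under 0.05, and DEG a fold over 2 with unadjusted p under 0.05, the thresholds of the study. Knockdowns had 1 sample each, so ratios carry exact Poisson intervals for counting error only. Levels are TMM-normalized CPM, computed within each experiment. Members and lists were chosen with earlier results of these data known, and 1 gene of the list of partner receptors and coregulators is not reported here and was left out of its counts. Other retinoid genes were named when changed by over 1.5-fold with Ponatinib or called in a knockdown. RDH5, RDH13, RDH14, DHRS4, RXRA, RXRB, NCOR1, GPRC5A, FABP5 and CYP26A1 were named after their values were seen. The 5 nearest profiles, the marker genes and the neighbors of RDH12 and DHRS3 were named too. Alternatives were DESeq2 1.42.0 (Wald test and size factors), other count filters, total-count scaling, a replicate block and leaving out each replicate. Between replicates, the chi-square per degree of freedom over genes was 1.44 for DMSO and 3.12 for Ponatinib, so no pair differed by less than sampling noise.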

Additional observations from a re-analysis of the deposited data

How the results depend on the processing

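The number of the 7 tested genes that changed with Ponatinib was 1 under DESeq2 size factors, no count filter, a minimum of 10 counts in every sample and DESeq2's Wald test, and 1 to 3 when each replicate was left out, with 3 only without Ponatinib replicate 2, the sample with the fewest counts. The number of DEGs among them was 0 throughout. Of the other retinoid genes, 15 changed, and 11 to 16 over the alternatives, with 11 under DESeq2's Wald test and 11 to 14 when each replicate was left out. The fitted log2 fold changes of the genes near 0 counts with DMSO moved with single DMSO samples: from 3.87 to 4.59 for DHRS3 (4.16 with all samples) and from 4.31 to 7.23 for RDH12 (5.06), without DMSO replicate 2 and 1 in turn. No shared deviation of same-numbered samples was seen, with a correlation of 0.01 over 11151 genes. With 1 DMSO pair and 1 Ponatinib pair, this cannot settle whether the repeat numbers pair the samples. With the replicate block, 1 of the 7 genes changed, 0 were DEGs and 15 other retinoid genes changed, with fitted log2 fold changes of 0.55 for RARG, -0.29 for RARA and 0.13 for RDH11. The numbers of genes called with ABL1 shRNA, ABL2 shRNA and both, 1, 0 and 1, were the same with DESeq2 size factors, total counts and a minimum of 50 counts. Of the differences near 0, 3 changed sign without passing the test: ALDH1A3, at -0.03 with all samples, was at 0.047 without DMSO replicate 1 and 0.026 without Ponatinib replicate 2, and RDH10, at 0.05, was at -0.04 without DMSO replicate 2. With each replicate left out in turn, ALDH1A3 ranged from -0.111 to 0.047 and RDH10 from -0.04 to 0.16. With total counts, the log2 ratio of ALDH1A3 with ABL2 shRNA went from -0.005 to 0.04. This further change of sign is counted among the 178 values below, not among these 3. The cause was not tested. Besides these 3 reversals, 5 values under alternatives moved by more than their limit, 2 passed the threshold only under the alternative (RDH11 and RARA, in the report), and 178 did neither. Depth limits RDH12, DHRS3 and RARB in the drug experiment, where 3 counts are 0.261 to 0.396 CPM.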

Other observations

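The 6 genes known to be induced by retinoic acid that changed with Ponatinib are given here across the shRNA samples. TNFAIP2, which rose with the drug, was below shCtrl in each knockdown, at 265.2 normalized CPM with shCtrl, 168.6 after ABL1 shRNA, 161.4 after ABL2 shRNA and 152.4 after both (ratios 0.636, 0.609 and 0.575). BHLHE40, which also rose with the drug, was above shCtrl in each, at 215.2, 308.6, 260.3 and 281.7 normalized CPM (ratios 1.43, 1.21 and 1.31). GPRC5A, which fell with the drug, was at 270.8 with shCtrl, 355.3 after ABL1 shRNA, 136.9 after ABL2 shRNA and 304.7 after both. TGM2, which fell by the most of the 6, had 365.8 normalized CPM with shCtrl and 363.3, 360.2 and 396.0 in the knockdowns, in the same order (ratios 0.993, 0.985 and 1.08). HIC1, which also fell, had ratios of 0.866, 0.748 and 1.11, and LRAT, which rose, of 1.14, 1.04 and 0.916, from 46 to 103 counts per sample. BHLHE40 and GPRC5A were highest in the 2 samples with ABL1 shRNA, and TNFAIP2, TGM2, HIC1 and LRAT were not. The share of all genes with this order was not counted. CDH1 was also highest in these samples (4, 23, 2 and 20 counts), while EPCAM was below shCtrl in each knockdown (105, 96, 73 and 61 counts). The part of either marker was not tested. The 3 ratios of a gene share 1 shCtrl sample, there is no replicate check, and the difference between drug and knockdown was not tested.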
